A study of Homo sapiens and Mus musculus with 9 samples.

Results

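The 7 mRNAs described here code for proteins of autophagy and of the lysosome: MAP1LC3B, BECN1, ATG101, CTSB, ATP6V0C, SPNS1 and TPCN2. They are the human transcripts that the small RNA peak lists pair with these symbols. The symbols were chosen with earlier results of these data known. All 7 had ribosome footprints in every library, out of 10280 transcripts with recovered read numbers, 2906 of which carry a symbol. The cells were HEK293, a human embryonic kidney line, wild type in every group. Ribosome profiling (Ribo-seq), which sequences the mRNA pieces that ribosomes protect, was done on 1 library each of control cells, starved cells, and starved cells transfected with a trans-RNA against ATF4, a transcription factor of the stress response. The labels give this last treatment to 2 libraries, called trans1 and trans2 here, and do not say whether they hold the same RNA. A total and a cap-enriched small RNA library came from HEK293 cells with no treatment named. The 3 mouse liver libraries of the series were not used here.

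There was 1 library per group, so no difference was tested, and all intervals below are exact 95% binomial (Clopper-Pearson) intervals of counting error alone. Since the reads carry no molecular identifiers, copies of 1 molecule are counted apart, and these intervals are too narrow by an unknown amount. The recovered footprints numbered 10629648 (control), 9359167 (starved cells), 6122116 (trans1) and 7517685 (trans2). Levels are given as CPM, the usual scaling of read counts by the total of the library, here its recovered reads. Where 4 values stand in a row, their order is control, starvation, trans1, trans2. No RNA-seq of these cells was used, so mRNA level and ribosome load per mRNA cannot be told apart. No group was starved and given a control RNA, so transfection and the trans-RNA cannot be told apart either. The sources used here do not give the length of starvation or the nutrient withheld. Of the HEK293 markers that could be measured, NEFL lay between 69.2 and 91.1 CPM and LIN28B between 33.6 and 56.1 CPM.

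Autophagy encloses cytoplasm in a double membrane and delivers it to the lysosome, where acid hydrolases degrade it and transporters return the products. Starvation is a classic trigger: it lowers mTORC1 activity, which releases the ULK1 complex, of which ATG101 is a subunit, and the lipid kinase complex around BECN1. MAP1LC3B, known as LC3B, is then attached to the growing membrane. ATP6V0C is the proteolipid subunit of the V-ATPase, the proton pump that acidifies lysosomes, and CTSB is the cysteine protease cathepsin B. SPNS1 exports lysophospholipids from the lysosome, and TPCN2 is a cation channel of its membrane. The transcription factors TFEB and TFE3 are known to activate many lysosomal genes under starvation through an E-box with the core CACGTG.

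To show what this element looks like beside these genes, the RefSeq promoters (build GRCh38.p14, 250 bases before to 50 bases after the start) were searched for CACGTG, which reads the same on both strands. Promoters of 6 of the 7 symbols were searched. CTSB was not among them, so whether its promoter holds the core was not tested. Of 35116 promoters 2548 (7.26%) held the core, and SPNS1 was the 1 examined member among them. Its 2 matches are printed with up to 12 bases on either side, on the plus strand, with the core in capitals.
SPNS1, core at base -250 (chr16:28974528-28974545): CACGTGggggttccagat
SPNS1, core at base -52 (chr16:28974714-28974743): cgggtggcaggtCACGTGtcgaaggcttgc
A match is a string of letters, and binding was not measured here.

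Across the 7 mRNAs the level per length of coding sequence differed widely. In control cells it was 224.5 CPM per kb for ATP6V0C, 148.9 for ATG101, 82.9 for MAP1LC3B, 59.8 for CTSB, 58.4 for BECN1, 32.1 for SPNS1 and 6.66 for TPCN2. CTSB and BECN1 were neighbours with nearly the same level. In trans2 the order began with ATG101, at 459 CPM per kb, ahead of ATP6V0C at 140.7 and SPNS1 at 91.2. All recovered reads count in these levels, also those outside the coding sequence. In control 860 of the 1117 ATP6V0C reads lay before the start codon, and 504 of the 1040 ATG101 reads at a single position. In trans2 1839 of the 2267 ATG101 reads and 913 of the 1088 SPNS1 reads lay at a single position. The ranks of these mRNAs thus do not give an even load on the coding sequence. The channel TPCN2 was lowest in every library, with 2.53 CPM per kb in trans1.

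**Figure D1:**
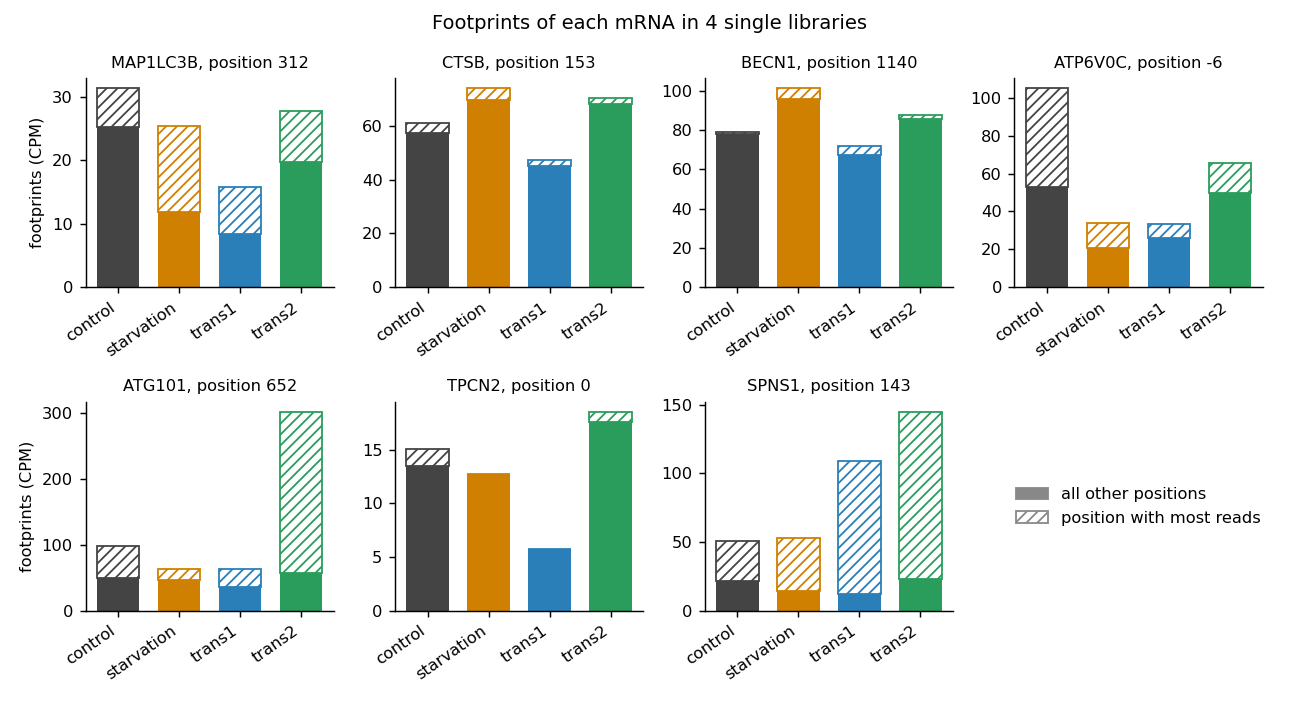
Footprints of each mRNA (bars, CPM, axis from 0) in the 4 Ribo-seq libraries, with the part at the position with most reads hatched and that position, in nt from the start codon, in each title. ATG101 in trans2 reaches 301.6 CPM, of which 244.6 lie at position 652, and SPNS1 is mostly hatched in all libraries.

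The comparison of starvation with control asks whether mRNAs of the degradation pathway carried more or fewer footprints in starved cells. They did not move together. ATP6V0C, the proton pump subunit, was 3.10-fold lower, while BECN1 was 1.28-fold and CTSB 1.21-fold higher. Of the 7, 1 was at least 2-fold lower and 0 at least 2-fold higher, where 1.91% and 2.75% of 10275 transcripts were. This rule of size uses log2((b + 1)/(a + 1)) on CPM. The median of the 7 on that scale was -0.23, against -0.001 over all transcripts, with 3 above 0 and 4 below, where 49.9% and 50.1% of transcripts were. That median is the value of TPCN2, whose starvation reads lay at 6 window positions, so its true total may be a multiple of the recovered one. The sign of the median is thus in doubt. Without TPCN2, a choice made after the values were seen, the median was -0.115 over 6 members. In the stop codon window alone, which lacks ATP6V0C, the median was 0.19 over 6 members, of the opposite sign. At a 1.5-fold line, ATP6V0C and ATG101 were lower and 0 members higher, against 10.1% and 10.5% of transcripts.

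ATP6V0C had 1117, 317, 205 and 495 reads, or 105.1, 33.9, 33.5 and 65.8 CPM. Control was highest, starvation and trans1 were alike, and trans2 lay between. The ratio of starvation to control was 0.32 (0.28 to 0.37), and 0.2% of all transcripts had a lower one. Trans1 stood at 0.99 (0.83 to 1.18) of starvation and trans2 at 1.94 (1.69 to 2.25), just under the 2-fold line on the scale of the rule.

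The footprints of ATP6V0C did not lie where those of most mRNAs lie. The 30 nt upstream of its start codon held 860, 252, 146 and 335 of these reads, which is 77.0% (74.4% to 79.4%), 79.5%, 71.2% and 67.7% of them. The median over transcripts was 0.97%, and 99.9% of transcripts had a lower share than ATP6V0C. In the start codon window no library had a read after position 72, although that window runs further into the coding sequence of 468 nt. Reads outside the windows numbered 53, 12, 2 and 36. The share is thus one of the recovered reads alone. Whether footprints from the empty stretch could be placed was not tested. Position -6 alone held 552, 122, 46 and 120 reads. Ratios without a position, here and below, left the highest position of every transcript out of the library totals. Ratios at a single position used the full totals. Without position -6 starvation was at 0.40 (0.34 to 0.47) of control, trans1 at 1.26 (1.01 to 1.56) of starvation and trans2 at 2.36 (1.98 to 2.82). The direction under starvation was thus the same with and without it. The sources used here do not state the offset between a deposited position and the ribosome's decoding site, so how these positions relate to a ribosome on the start codon cannot be told. ATP6V0C had no row in the stop codon tables.

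BECN1, the scaffold of the autophagy lipid kinase complex, had 840, 948, 440 and 659 reads, or 79.0, 101.3, 71.9 and 87.7 CPM. Starvation was highest and trans1 lowest. The ratio of starvation to control was 1.28 (1.17 to 1.41), a value above those of 79.3% of transcripts, and trans1 was at 0.71 (0.63 to 0.80) of starvation and trans2 at 0.87 (0.78 to 0.96). The 2 ends of its coding sequence differed. In the window at the start codon the log2 ratio of starvation to control was -0.91 and in the window at the stop codon 1.63, where position 1140 held 12 reads in control and 51 in starvation. The windows held 205 of the 840 reads and 210 of the 948, so most of its reads lay elsewhere.

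CTSB, the protease, had 648, 692, 290 and 528 reads, or 61.0, 73.9, 47.4 and 70.2 CPM. Starvation and trans2 were high and trans1 was low. Starvation was at 1.21 (1.09 to 1.35) of control, trans1 at 0.64 (0.56 to 0.74) of starvation and trans2 at 0.95 (0.85 to 1.06). Its reads were spread over many positions, with at most 6.17% in any library at position 153, its highest over all libraries. Without position 153 the ratios were 1.25, 0.65 and 0.96. In trans1 position 861 held more reads than 153 did, 37 of the 290. The log2 ratio of starvation to control was -0.25 in the start codon window alone and 0.54 in the stop codon window alone, so its direction differed between the ends.

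MAP1LC3B had 333, 238, 97 and 209 reads, or 31.3, 25.4, 15.8 and 27.8 CPM. Control was highest and trans1 lowest. Starvation was at 0.81 (0.68 to 0.96) of control, trans1 at 0.62 (0.49 to 0.79) of starvation and trans2 at 1.09 (0.90 to 1.32). Position 312 held 65, 127, 46 and 61 reads. The windows together span its coding sequence of 378 nt, but no library had a read between positions 28 and 305. Outside position 312, 268 reads were left in control and 111 in starvation. The ratio of starvation to control was 0.48 (0.38 to 0.60) there and 2.22 (1.63 to 3.04) at position 312, so the total joined 2 opposite differences. Trans2 against starvation was likewise at 1.64 (1.27 to 2.11) there and at 0.60 (0.43 to 0.82) at position 312.

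TPCN2, the channel, had few reads, with 160, 119, 35 and 139. Their levels were 15.1, 12.7, 5.72 and 18.5 CPM. Trans1 was lowest and trans2 highest. Starvation was at 0.84 (0.66 to 1.08) of control, an interval that includes 1. Reads lay at 6 window positions in starvation and at 5 in trans1, too few to fix the read totals of these libraries on their own. With so few positions the true total may be a multiple of the recovered one, so both values are less certain than the others.

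In SPNS1 more than 50% of the reads lay at 1 position in every library, from 56.8% to 88.9%. In ATG101 this held for trans2 alone, with 81.1%, against 48.5% in control, 26.0% in starvation and 41.6% in trans1. In starvation MAP1LC3B, with 53.4%, and ATP6V0C, with 38.5%, had more of their reads at 1 position than ATG101. Summed over the libraries, 70.8% of the window reads of ATG101 and 94.7% of those of SPNS1 were at a single nucleotide. The median over 8918 transcripts with at least 100 window reads was 10.8%, and 137 (1.54%) had 50% or more. A deposited position is called in frame here when it is a multiple of 3 nt from the start codon. Both positions were out of frame, whereas 89.6% of all transcripts had their highest position in frame. Of the 137 transcripts with 50% or more at 1 position, 66 (48.2%) had it in frame.

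ATG101, the ULK1 complex subunit, had 1040, 588, 385 and 2267 reads, or 97.8, 62.8, 62.9 and 301.6 CPM. Trans2 stood far above the other libraries. Position 652, which is 5 nt before position 0 of the stop codon table, held 504, 153, 160 and 1839 of these reads. All remaining positions held 536, 435, 225 and 428.

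The ratios of ATG101 follow that position. Trans2 was at 4.80 (4.38 to 5.26) of starvation over all reads, at 14.96 (12.68 to 17.76) at position 652, and at 1.21 (1.05 to 1.38) without it. Starvation was at 0.64 (0.58 to 0.71) of control over all reads and at 0.94 (0.83 to 1.07) without the position. Trans1 was at 1.00 (0.88 to 1.14) and 0.80 (0.68 to 0.94) of starvation. In the start codon window alone trans2 against starvation was at -0.046 on the log2 scale of the rule. The share of coding window reads in the reading frame was 37.2%, 61.5%, 47.7% and 11.6%, and 93.7%, 95.7%, 94.5% and 88.5% once position 652 was left out.

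SPNS1, the lysophospholipid exporter, had 542, 498, 669 and 1088 reads, or 51.0, 53.2, 109.3 and 144.7 CPM. Control and starvation were alike and both trans-RNA libraries were high. Position 143 held 308, 364, 595 and 913 of these reads. The rest came to 234, 134, 74 and 175 reads, or 23.9, 15.9, 13.6 and 25.6 CPM with the highest position of every transcript left out of the totals. Over the rest of the mRNA control and trans2 were thus high, and starvation and trans1 were low.

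Over all reads starvation was at 1.04 (0.92 to 1.18) of control for SPNS1, and without position 143 at 0.67 (0.54 to 0.83). Trans1 was at 2.05 (1.83 to 2.31) of starvation over all reads and at 0.85 (0.63 to 1.14) without the position, which turns the direction. Trans2 was at 2.72 (2.44 to 3.03) and at 1.60 (1.27 to 2.02). Reads in the frame made up 1.81% to 10.2% of the coding window reads, and 75.8% to 93.3% without position 143, where 13 to 45 reads remained. No SPNS1 read lay in the 30 nt before the start codon.

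**Figure D2:**
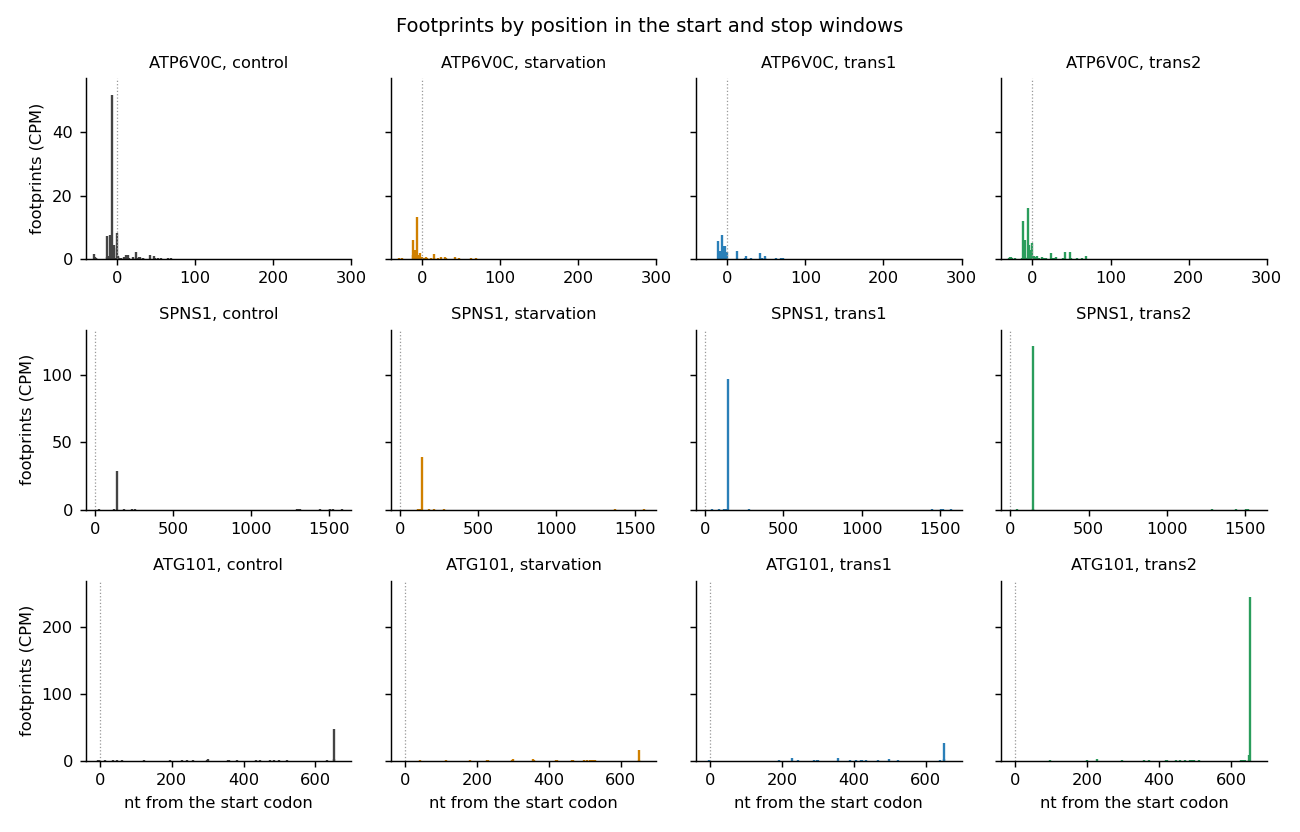
Footprints in CPM (vertical axis, the same in each row, from 0) against distance from the start codon in nt for ATP6V0C, SPNS1 and ATG101 in each library, in the start and stop codon windows. ATP6V0C peaks at -6, SPNS1 at 143 and ATG101 at 652 in all 4 libraries, and the ATG101 line is far higher in trans2 than in the others.

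Transfection of the trans-RNA was compared with starvation alone. Both comparisons share the starvation library, and starvation is also the upper library of the comparison above, so the sets of ratios are not independent. In trans1, MAP1LC3B, CTSB and BECN1 were at 0.62 to 0.71 of starvation and TPCN2 at 0.45 (0.30 to 0.66), whereas SPNS1 was at 2.05. Of the 7, 1 was at least 2-fold higher and 1 at least 2-fold lower, where 1.64% and 1.52% of 10267 transcripts were. The lower one, TPCN2 at -1.03 on the log2 scale, missed the line with centring on the median of all transcripts (-0.95), a pseudocount of 5 CPM (-0.73) and the start codon window alone (-0.81). The TPCN2 total in trans1 rests on 5 window positions, so the true total may be a multiple of it. The interval of its ratio leaves this doubt out. At the 1.5-fold line MAP1LC3B and CTSB joined TPCN2, which gave 3 lower, against 8.5% of transcripts, and SPNS1 stayed the 1 higher, against 6.76%. The median log2 ratio was -0.49 against -0.08 over all transcripts, with 2 members above 0 and 5 below, where 41.5% and 58.5% of transcripts were. Without ATG101 and SPNS1, a choice made after their positions were seen, it was -0.63 over 5 members, and without TPCN2 -0.25 over 6.

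In trans2, ATG101 and SPNS1 were at least 2-fold higher and 0 members at least 2-fold lower, where 1.99% and 0.409% of 10277 transcripts were. The median was 0.51 against 0.04 over all transcripts, and 0.12 without ATG101 and SPNS1. The value of 0.51 is that of TPCN2, whose starvation total is in doubt as said above. The median was 0.93 in the start codon window alone and -0.15 in the stop codon window alone, which turns the direction. With the position with most reads left out for every transcript, ATP6V0C was the 1 member at least 2-fold higher, and the median was 0.42. At the 1.5-fold line 3 members were higher, ATP6V0C with them, and 0 lower, against 8.77% and 2.45% of transcripts. Above 0 were 5 members and below it 2, where 54.2% and 45.8% of transcripts were. The labels name the same treatment for both trans-RNA libraries. Trans2 was at 1.22 of trans1 for BECN1 (1.08 to 1.38), a value above those of 64.2% of transcripts, and at 1.32 for SPNS1 (1.202 to 1.46), above 73.0%. It was at 3.23 for TPCN2 (2.22 to 4.83), above 99.2%, with the TPCN2 total of trans1 in doubt as said above. It was at 4.79 for ATG101 (4.30 to 5.36), above 99.6%.

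**Figure D3:**
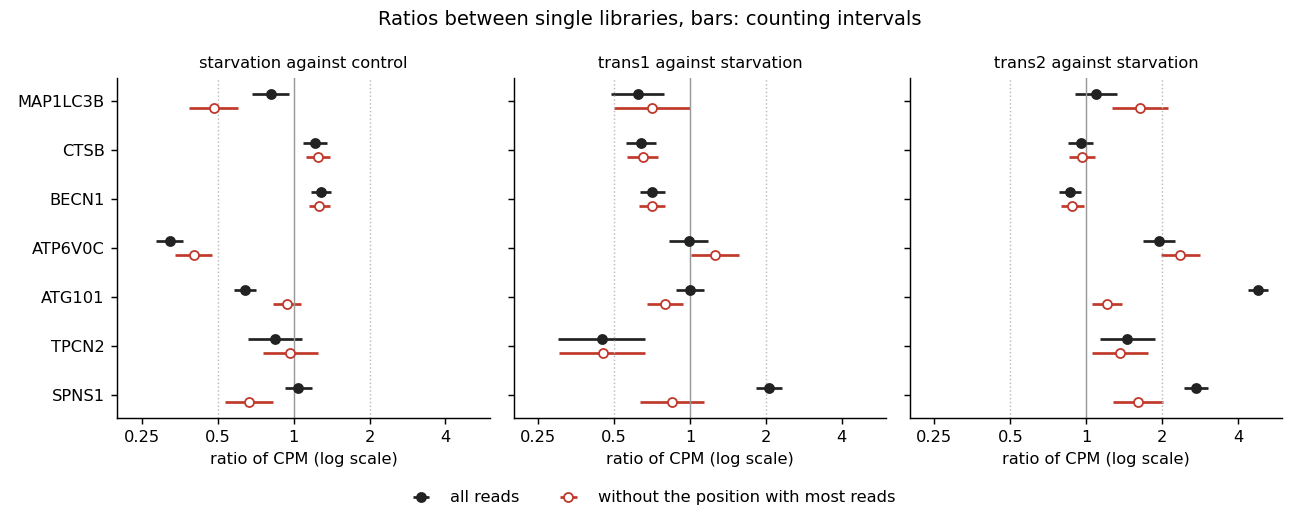
Ratio of CPM between libraries (horizontal log axis) for each mRNA in 3 comparisons, over all reads (filled) and without the position with most reads (open), with 95% counting intervals as bars and dotted lines at 0.5 and 2. The filled and open points part most for ATG101 in trans2, at 4.80 and 1.21, and for SPNS1 in trans1, at 2.05 and 0.85.

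The rest of the pathway was read from 5 lists of 229 genes in all, of which 56 had footprints and a symbol here. Outside the members no listed gene was at least 2-fold higher or lower in any of the comparisons, out of 49, where 0.409% to 2.75% of all transcripts were per direction, so a count of 0 is near the background. Under starvation 49.9% of all transcripts were above 0. Of 14 other genes of the autophagy machinery 9 were, with a median of 0.25. They include the kinase ULK2 at 0.95, the lipid-binding protein WDR45 at 0.83 and the LC3 relative GABARAP at 0.64, while ATG14, a partner of BECN1, was at -0.66. Of 12 other lysosomal hydrolases and cofactors 3 were above 0, with a median of -0.47, from NAGLU at -0.89 to GUSB at 0.74. Of 7 other lysosomal membrane proteins 1 was above 0, with a median of -0.46, including LAMP1 at -0.71 and the cholesterol transporter NPC1 at -0.46. The 3 other V-ATPase subunits were at -0.43 for ATP6V0D1, -0.34 for ATP6V1E1 and 0.03 for ATP6V0A2, all nearer to 0 than ATP6V0C at -1.60.

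In trans1, where 58.5% of all transcripts were below 0, 11 of the 12 other hydrolases and cofactors were below 0, with a median of -0.41, among them the mannosidase MAN2B1 at -0.99 and PSAP, the precursor of the saposins, at -0.57. The exception was SIAE at 0.77. Of the other autophagy genes 11 of 14 were below 0, with a median of -0.12. The nutrient-sensing list had a median of -0.19 over 13 genes under starvation and of -0.02 in trans1. In trans2 it was 0.24, with the mTORC1 subunit RPTOR at 0.69. The hydrolases had a median of 0.19 in trans2 and the autophagy machinery one of -0.17. The 7 other membrane proteins had a median of -0.43 in trans1 and 0.15 in trans2, and the 3 other V-ATPase subunits one of 0.01 and -0.27. No difference between lists was tested.

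The authors' deposited table gives log2 fold changes per reading frame for 5 of the 7, without CTSB and SPNS1. The sources used here do not state its scaling. Over 845 coding frames found in both, its Pearson correlation with the log2 ratios computed here was 0.797 for starvation, 0.487 for trans1 and 0.681 for trans2. The authors' value minus the one computed here had a median of -0.123, -0.385 and -0.244. In the authors' deposited table the coding sequence of ATP6V0C was at -0.90 for starvation, -0.80 for trans1 and 0.33 for trans2, where -1.60, -0.016 and 0.94 were computed here. Medians over all complete coding frames of the authors' deposited table were -0.14, -0.48 and -0.25. For MAP1LC3B the authors' deposited table has 0.34, -0.64 and -0.62, where the ratios computed here were -0.29, -0.65 and 0.12, so the signs differ for starvation and trans2. For ATG101 a truncated frame is listed in the authors' deposited table at -0.29, -0.29 and 0.41, and a truncated frame of BECN1 at 0.24, -0.51 and -0.40. In the authors' deposited table upstream frames of ATG101 ran from -0.082 to 0.861 for starvation and from -1.228 to -0.397 for trans1. For trans2 they ran from -0.921 to 0.000, so they did not share the signs of the truncated frame for starvation and trans2. Upstream frames of BECN1 were at 0.363, -0.848 and -0.292 there. For a truncated frame of TPCN2 the authors' deposited table has -0.009, -0.074 and -0.007, where -1.03 was computed here for trans1.

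By the course of their level over the 4 libraries, the nearest of the symbol-paired genes with at least 10 CPM in every library (2401, or 2402 for TPCN2) were found for each member, as the Euclidean distance of log2 CPM centred on the gene's mean. For ATP6V0C these were CHCHD10 at a distance of 0.26, POLR2L at 0.28 and LGALS3BP at 0.38. For BECN1 they were FAH at 0.022, ATG10 at 0.046 and CCNF at 0.063. For CTSB they were JADE1, VAPA and NIPSNAP1, at up to 0.067, and for MAP1LC3B SORD, SRSF8 and DERL2, at up to 0.10. TPCN2 was nearest to ARL16 at 0.13. ATG101 had no close neighbour, with KCTD19 at 0.61, and SPNS1 was nearest to KHNYN at 0.21. With 4 points per gene such likeness is a description.

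Each member has at least 1 small RNA peak, since its symbol was taken from the peak lists, whose lowest value is 4 reads at a position. MAP1LC3B carried the largest group, on the antisense strand of its 5′ untranslated region. The total library listed 35 positions from -1018 to -942 with 3111 reads, the 5th highest sum of 1709 transcripts with antisense peaks and 2.6% of all reads in that list. The cap library listed 11 positions with 590 reads, the 22nd highest of 1338. The median transcript had 9 reads in either list.

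The 2 libraries differed along this stretch. Positions -1018 to -1013 held 1450 reads in the total library and 548 in the cap library, or 46.6% and 92.9% of the MAP1LC3B antisense reads. Positions -951 to -942 held 1290 and 25 reads, or 41.5% and 4.24%. The highest position was -947 in the total library, with 917 reads against 18 in the cap library, and -1016 in the cap library, with 184 reads against 573 in the total library. These are the 2 groups with most reads in the total library, where positions at most 3 nt apart were joined, a rule set after the values were seen. No sense peak of MAP1LC3B was listed in either library.

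How many of all transcripts had sense peaks in both libraries was not counted. Among the members ATG101 was the 1 with sense peaks in both, at positions 651 to 654. In the total library the reads there were 4, 43, 128 and 12, and in the cap library 5, 13, 395 and 6. The footprint position 652 lies inside this group, 1 nt before its highest position, 653. Among 562 transcripts with a sense peak inside the footprint windows, 26 (4.63%) had their highest footprint position within 1 nt of a peak. That share was 9 of 16 (56.2%) where at least 50% of the window reads were at 1 position, ATG101 among them, and 17 of 546 (3.11%) otherwise. Whether the footprint reads and the small RNA reads come from the same molecules was not tested. SPNS1 had no listed peak near position 143.

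The other members had few small RNA reads. In the cap library sense peaks lay in the 5′ untranslated region of ATP6V0C (-136 and -132, 19 reads each), TPCN2 (-66, -64 and -63, with 24, 8 and 4 reads), BECN1 (-130, -129 and -124, with 12, 4 and 9 reads) and SPNS1 (-360, 7 reads). None of these 4 mRNAs had a sense peak in the total library. Sense peaks were listed for 3072 transcripts in the cap library and for 2063 in the total library. How many were in both was not counted, so the absence cannot be called particular to these 4. Over all mRNAs 61.7% of cap sense positions were in 5′ untranslated regions against 12.8% in the total library. Antisense reads were listed for CTSB in the total library, 6 each at -111 and -110, and for BECN1 at 478, with 10 reads in the total and 6 in the cap library. Among RefSeq genes, CNTD1 and the microRNA gene MIR6781 overlap BECN1, and MIR3164 overlaps TPCN2.

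**Figure D4:**
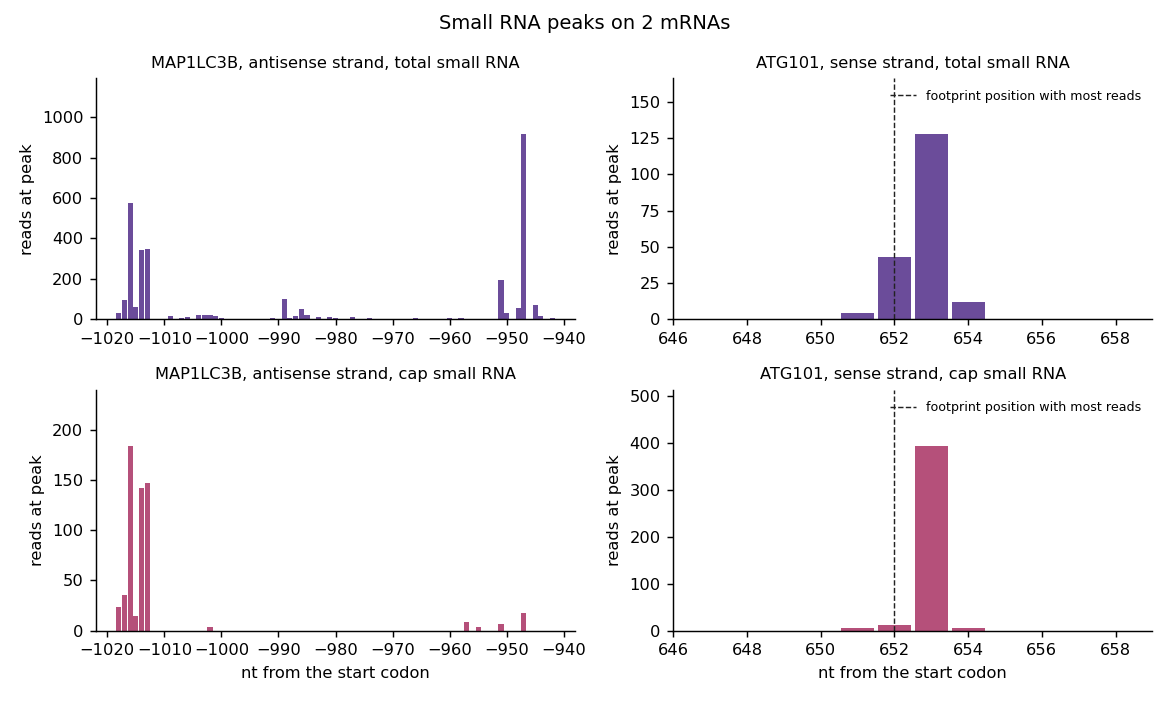
Reads at small RNA peaks (vertical axes from 0, own scale per panel) against distance from the start codon in nt, for MAP1LC3B antisense (left) and ATG101 sense (right) in the total and cap libraries. The MAP1LC3B group near -947 is tall in the total library, with 917 reads, and small in the cap library, with 18, and the dashed line marks ATG101 footprint position 652 beside the peak at 653.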

How the data were processed

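HEK293 Ribo-seq (4 libraries) and small RNA (2 libraries) were used. Tools listed in the submitters' processing notes, whose roles are not stated, are STAR 2.7.10a, Bowtie 1.2.3, cutadapt 2.8 and bcl2fastq 2.20.0.422. For Ribo-seq these notes list the mouse build GRCm39, although the tables carry human transcript IDs; no human build is named. Each deposited density table gives the footprint signal at single nucleotides, from 30 nt outside to 300 nt inside the coding sequence at either end, scaled within each transcript. Values of 1 transcript and library are whole multiples of their smallest unit, from which reads were recovered where at least 2 libraries had 8 or more positions with reads (10280 of 16984 transcripts). Of 1160 short transcripts with both windows, the windows matched at the recovered length in 994. In these the total exceeded the coding reads in 968 and a median 87.7% of it was coding, so it takes in reads outside the coding sequence. The length of 185 transcripts was multiplied until the total covered the windows. Small RNA peaks are deposited as read counts per position. The authors' fold tables hold log2 values. Per the file headers, the peak lists also give a distance from the start codon.

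Reads were scaled to CPM, log2 ratios used a pseudocount of 1 CPM and a minimum of 1 CPM in 1 library, ratios printed with an interval used none, and 2-fold was a rule of size. The recovery was tested on simulated data. That check required the right ratios between libraries, not the right read totals. Named are the 7 members, the genes of the 5 lists at least 2-fold changed (others as examples chosen after their values were seen) and the 3 nearest genes of each member, given in part for TPCN2, ATG101 and SPNS1. Members and lists were chosen with earlier results of these data known. Python 3, numpy, pandas and scipy were used.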

Additional observations from a re-analysis of the deposited data

How the results depend on the processing

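No paired analysis was possible because every group holds 1 library and the results come from no test. Other pseudocounts and filters on low values moved no single ratio of a member by more than counting error, and the median of the 7 kept its sign under each of them. With 5 CPM as pseudocount, 0 members were at least 2-fold higher and 0 lower in trans1, and centring on the median of all transcripts also gave 0 lower. With the start codon window alone the medians were -0.54 for starvation, with 2 members lower, -0.23 for trans1, with 0 lower, and 0.93 for trans2. With the stop codon window alone, which has no ATP6V0C row, they were 0.19, -0.27 and -0.15 over 6 members, of opposite sign for starvation and trans2, with 1 higher and 0 lower for starvation and 0 higher for trans1. In the start window ATG101 in trans2 reversed to -0.046. Without the position with most reads SPNS1 in trans1 reversed to -0.22, and 0 members were higher in trans1 and 1, ATP6V0C, in trans2. A 1.5-fold line gave 2 lower for starvation and 3 lower for trans1. Leaving out TPCN2, a choice made after seeing the data, gave a trans1 median of -0.25 and 0 lower; leaving out ATG101 and SPNS1 gave 0 higher in trans1 and, in trans2, a median of 0.12 and 0 higher. The share of coding window reads in frame, pooled over the members, went from 58.3% to 89.3% in control, 62.2% to 86.9% in starvation, 40.6% to 90.1% in trans1 and 25.4% to 86.6% in trans2 without the position with most reads. With at least 8 reads per small RNA peak, cap sense positions went from 13 to 8 and cap positions also listed in the total library from 14 to 9. The cause of these changes was not tested.

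Depth in trans1 limits TPCN2, with 35 reads, MAP1LC3B outside position 312, with 51, and SPNS1 outside position 143, with 74. With 1 library per group, spread between cultures is unknown.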
